A study of Homo sapiens with 36 samples.

Results

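Transcripts of 10 scavenger receptors of macrophages (CD163, MSR1, MRC1, MARCO, CD36, SCARB1, OLR1, STAB1, VSIG4 and COLEC12) were followed across 12 groups of THP-1 cells. They were taken by gene identifier from the deposited expression table, where each of the 10 symbols matched 1 of the 21599 rows. All 10 passed the filter on low values, which asks only for log2(10) in at least 3 libraries. MARCO and COLEC12 each reached that level in 11 of the 36 libraries, mostly WT ones, and MRC1 in 17. THP-1 is a human monocytic leukaemia line, and here it was wild type (WT) or knocked out for IRG1 (KO), the gene now named ACOD1, whose enzyme makes itaconate. All 36 libraries came from cells differentiated with the phorbol ester PMA (100 nM for 72 h), which makes the line adherent and macrophage-like, so no untreated monocytes serve as a reference. Each genotype then received vehicle, or LPS together with IFN-γ, each at 200 ng/mL, and was sampled after 6, 12 and 24 h with 3 libraries per group. The labels do not say whether the KO line is 1 clone, nor whether the 3 libraries of a group came from separate cultures. The p-values therefore measure only the spread between these libraries, which may be technical, and other features of the KO line cannot be told apart from the loss of the gene.

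Scavenger receptors bind modified lipoproteins, microbial surfaces, apoptotic cells and waste proteins, and most of them pass their cargo to endosomes. The class A members MSR1, MARCO and COLEC12 carry a collagen-like stalk, CD36 and SCARB1 are class B lipid receptors, OLR1 is a lectin-like receptor for oxidised low-density lipoprotein, and STAB1 is a stabilin that clears extracellular proteins. CD163 takes up haemoglobin bound to haptoglobin, MRC1 is the mannose receptor, and VSIG4 binds complement fragments. In macrophages CD163, MRC1, STAB1 and VSIG4 are commonly read as markers of a resting or tissue-resident state.

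RefSeq's promoter table (GRCh38.p14, a later build than the GRCh37.p5 named in the submitters' processing notes) held entries for 6 of the 10 members: MARCO, STAB1, CD36, CD163, COLEC12 and VSIG4. The 250 bases before the annotated start are shown for CD163, VSIG4 and COLEC12, because these are the 3 members whose transcripts were called lower in KO than in WT at all 3 times under vehicle. They lie at chr12:7503778-7504027, chrX:66040081-66040330 and chr18:500702-500951, all on the minus strand, and are written 5′ to 3′ with motif matches in capitals.
CD163: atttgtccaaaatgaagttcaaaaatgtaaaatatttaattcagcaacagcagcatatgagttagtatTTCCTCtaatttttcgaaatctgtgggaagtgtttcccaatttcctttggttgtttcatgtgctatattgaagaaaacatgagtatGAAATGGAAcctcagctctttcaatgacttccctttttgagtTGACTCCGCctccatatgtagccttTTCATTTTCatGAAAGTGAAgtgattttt
VSIG4: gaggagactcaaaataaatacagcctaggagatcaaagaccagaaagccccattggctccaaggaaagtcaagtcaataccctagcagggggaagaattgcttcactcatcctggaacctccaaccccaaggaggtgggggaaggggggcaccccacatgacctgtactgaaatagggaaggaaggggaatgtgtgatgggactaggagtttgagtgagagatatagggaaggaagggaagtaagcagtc
COLEC12: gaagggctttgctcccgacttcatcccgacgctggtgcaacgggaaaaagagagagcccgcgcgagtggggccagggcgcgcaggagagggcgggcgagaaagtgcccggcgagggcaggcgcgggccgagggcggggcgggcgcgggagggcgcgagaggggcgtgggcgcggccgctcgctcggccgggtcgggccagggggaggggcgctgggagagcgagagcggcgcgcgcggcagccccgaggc
Both strands were searched for GAAANNGAA (like the interferon-stimulated response element), GAGGAA (the PU.1 box), TGANTCA (AP-1) and TGACNNNGC (the core of the antioxidant response element). Over 35116 RefSeq promoter windows of the same length these letters were found in 6.88%, 23.6%, 6.57% and 10.9%. The CD163 window held 5 matches: a PU.1 box from -182 to -177 before the start, GAAANNGAA from -96 to -88, from -29 to -21 and from -18 to -10, and TGACNNNGC from -54 to -46. No match was found in the VSIG4 or COLEC12 windows, which says only that these letters are not in these 250 bases. The windows also differed in base composition, with 33.6% G and C in CD163, 50.4% in VSIG4 and 78.4% in COLEC12.

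ACOD1 itself was near 0 under vehicle in both genotypes. With stimulation at 6 h it reached 12.76, 11.49 and 11.11 in the WT libraries and 8.35, 8.31 and 8.80 in the KO libraries, on the deposited log2 scale that is used for all levels below. The KO libraries were therefore lower but did not lack the transcript: the difference was -3.31 ± 0.47 at 6 h (adjusted p = 3.74e-05), -2.69 ± 0.47 at 12 h (adjusted p = 0.00087) and -1.48 ± 0.47 at 24 h, where the adjusted p was 0.0597. Which part of the gene was edited is not given in the sources used here. All 11 macrophage markers (such as CD68, CSF1R, SPI1 and TYROBP) were at or above log2(10) in all 36 libraries. Without untreated monocytes this cannot show the macrophage state, and the NK cell markers NKG7 and GNLY also reached that level in all 36. The mean correlation of a library with the other 2 of its group ran from 0.839 to 0.964, lowest in stimulated KO replicate 2 at 6 h and next lowest in stimulated WT replicate 3 at 24 h (0.870). Depth per library is unknown, since the table holds no counts.

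Per length of exon, in the 9 WT vehicle libraries, CD163 stood first and MRC1 last. The length used is the union of all annotated exons of a gene. Whether the deposited values were already scaled by length is not stated. On the deposited values alone CD36 stood above CD163 (9.79 against 9.38) and MARCO below MRC1 (3.69 against 4.49), so both ends of the order depend on this scaling. The order of the deposited value minus log2 of the exon length in kb was CD163 (6.84 ± 0.59, SD), CD36 (6.35 ± 0.34), MSR1 (5.86 ± 0.72), SCARB1 (5.47 ± 0.14), VSIG4 (5.25 ± 0.56), OLR1 (5.20 ± 1.23), STAB1 (3.32 ± 0.79), COLEC12 (3.30 ± 1.37), MARCO (2.63 ± 1.32) and MRC1 (2.11 ± 0.93). The gap between OLR1 and STAB1 was larger than the SD of either, while each other pair of neighbours lay within the larger of their SDs. MRC1 has a near-identical copy in older genome builds (MRC1L1), and how reads shared by the copies were counted is not stated, so its level is uncertain.

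**Figure D1:**
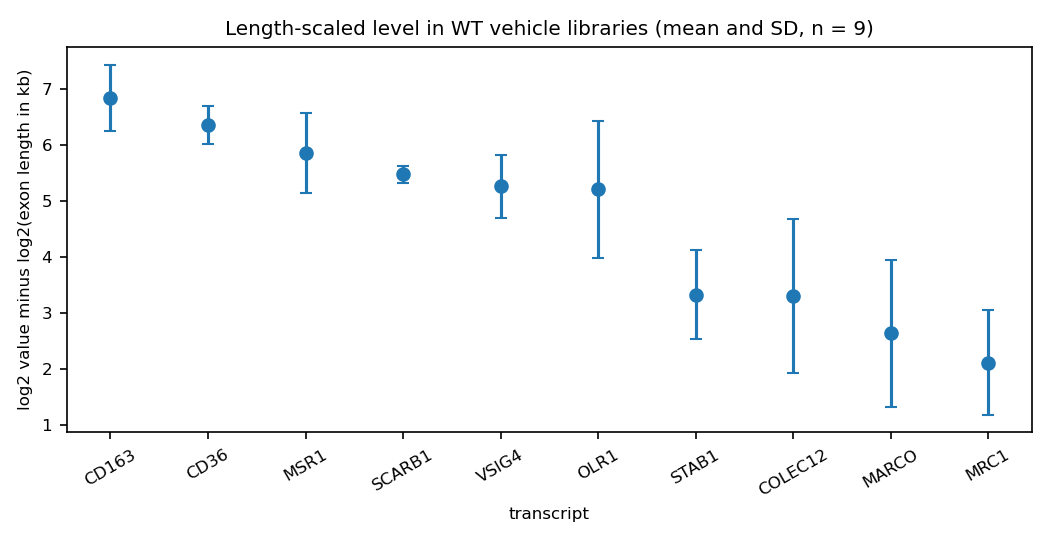
Length-scaled level of each transcript in the 9 WT vehicle libraries (points, mean; bars, SD), as the deposited log2 value minus log2 of the exon length in kb. CD163 is highest at 6.84 and MRC1 lowest at 2.11, with the widest gap between OLR1 and STAB1.

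Across the 36 libraries the range of group means was smallest for CD36 (2.14) and SCARB1 (3.22), which stayed well above log2(10) in all groups. It was largest for CD163 (6.90), COLEC12 (6.68) and VSIG4 (5.62). COLEC12 and MRC1 (range 4.07) fell close to 0 in stimulated cells at 24 h. Below, ± after a change or difference is the standard error from limma with 3 libraries per group, and a result is called at an adjusted p below 0.05 over all 21232 genes tested, with every library weighted equally. A fit with estimated library weights is given beside it where a call differs, although the estimation of those weights stopped before convergence. The weights ran from 0.10 (stimulated KO replicate 2 at 6 h) to 5.96 (KO vehicle replicate 3 at 6 h). In KO at 6 h replicate 3 held most of the weight, under vehicle (5.96 against 0.72 and 0.35) and with stimulation (3.42 against 0.77 and 0.10). In WT replicate 1 held the largest weight in every group, as under vehicle at 6 h (3.68 against 0.73 and 0.54). With stimulation it held 2.94 against 0.83 and 0.38 at 6 h, and 3.23 against 0.51 and 0.19 at 24 h. Weighted results that use these KO or WT groups rest largely on a single replicate of each. In bulk RNA, fewer cells of a type and less RNA per cell cannot be told apart.

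**Figure D2:**
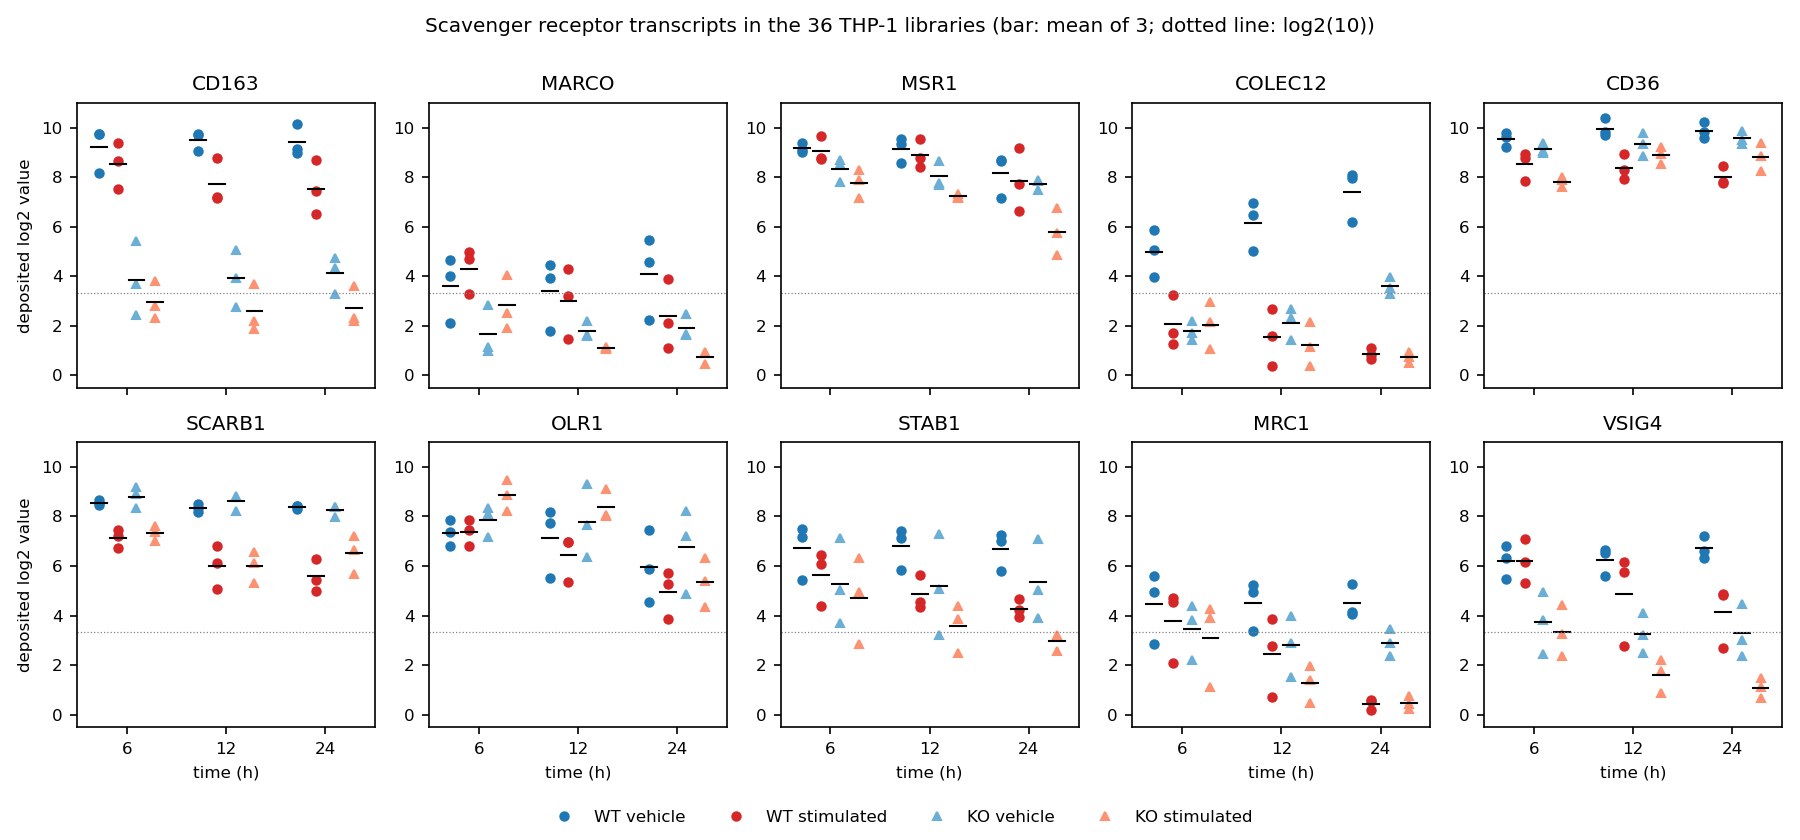
Deposited log2 value of each transcript in every library by time, with 3 libraries per group (points) and their mean (bar); the dotted line marks log2(10). CD163 in KO libraries (triangles) lies below every WT library (circles), and COLEC12 in WT vehicle libraries runs from 3.96 to 8.09, while no other library exceeds 3.95.

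Against WT, CD163, VSIG4 and COLEC12 were called lower in KO at all 3 times under vehicle, and CD163 and VSIG4 also with stimulation. Under vehicle 3 of 10 members were called lower at 6, 12 and 24 h, beside 3.91%, 2.34% and 1.75% of all genes tested, and with stimulation 2, 2 and 3 of 10 were called lower, beside 3.86%, 1.68% and 2.46%. With all libraries weighted equally, limma called no member higher in any of these 6 comparisons. The shares of all genes called higher were 4.28%, 2.9% and 2.23% under vehicle and 4.86%, 1.78% and 3.41% with stimulation. Other settings called some members higher with stimulation. These were CD36 at 24 h (library weights, or without stimulated KO replicate 2), SCARB1 at 24 h (without that replicate) and OLR1 at 6 h and 12 h (replicate number as a block). At an unadjusted p below 0.05, 0 members were higher under vehicle, and 0, 1 and 2 with stimulation at 6, 12 and 24 h. The median difference of the 10 members was -1.20, -1.60 and -1.46 under vehicle, where that of all genes was -0.05, -0.02 and -0.02. General macrophage markers moved the same way: 4 of 11 were called lower in KO at each time under vehicle and 3, 2 and 1 with stimulation, and their summed level ran from 13.36 to 14.08 in KO vehicle libraries and from 14.26 to 15.46 in WT vehicle libraries. With stimulation the sums overlapped, from 13.21 to 14.28 in KO libraries and from 13.81 to 14.83 in WT libraries. The part of these marker differences in the members' differences was not tested.

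**Figure D3:**
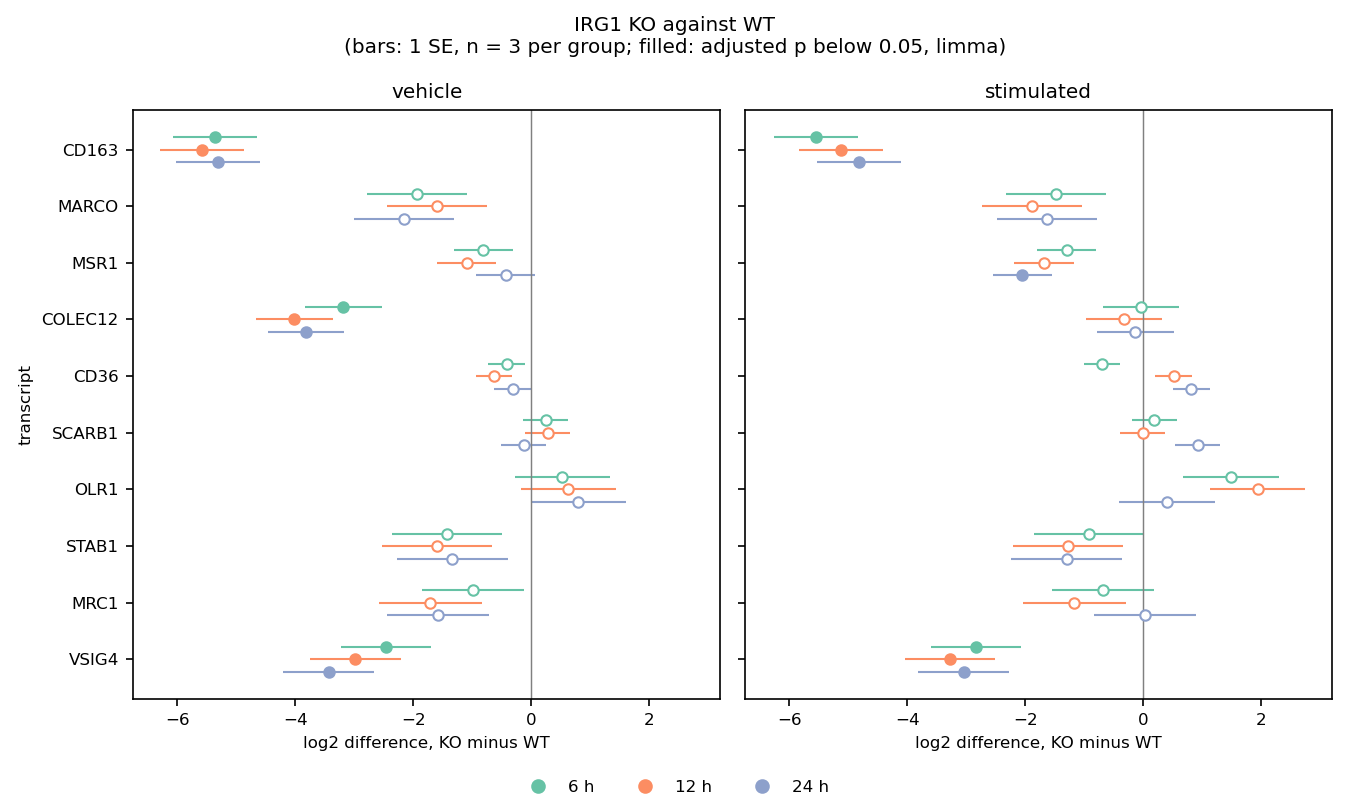
Difference KO minus WT on the log2 scale for each transcript under vehicle and with stimulation at 6, 12 and 24 h (points), with 1 SE (bars); filled points have an adjusted p below 0.05. CD163 lies between -5.58 and -4.82 in all 6 comparisons, while COLEC12 lies between -4.02 and -3.18 under vehicle and between -0.32 and -0.03 with stimulation.

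Stimulation with LPS and IFN-γ lowered SCARB1 at every time in both genotypes, and by 24 h most of the receptors had fallen. In WT, 3, 4 and 7 of 10 members were called lower at 6, 12 and 24 h, beside 20.9%, 21.7% and 26.1% of all genes, so the count at 6 h was near the background. In KO the counts were 2, 1 and 6, beside 22.5%, 19.5% and 21.6%, so those at 6 h and 12 h were not above it. No member was called higher by limma in any of the 6 comparisons, except with library weights COLEC12 and OLR1 in KO at 6 h (1.05 and 1.63, adjusted p of 0.0316 and 0.016), and with equal weights 0 were higher at an unadjusted p below 0.05, while 15.1%, 16.8% and 20.2% of genes were called higher in WT and 16.2%, 15.5% and 17.3% in KO. The median change of the members was -0.69, -1.68 and -2.15 in WT and -0.48, -1.11 and -1.84 in KO, where all genes had medians from -0.20 to -0.08. Genes used as markers of endothelial and sinusoid cells, in which STAB1 and COLEC12 are also expressed, were lower too. Their summed level ran from 5.31 to 6.55 in WT vehicle and from 2.81 to 4.67 in stimulated WT libraries. Of the 6 tested, 2, 3 and 2 were called lower, beside 20.9%, 21.7% and 26.1% of all genes, so the counts at 6 h and 24 h were near the background. All 36 libraries came from the monocytic THP-1 line, and the labels name no endothelial cells. Those 6 markers were low throughout, with medians over all libraries between 0.49 and 2.52, and their part in the members' changes was not tested.

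**Figure D4:**
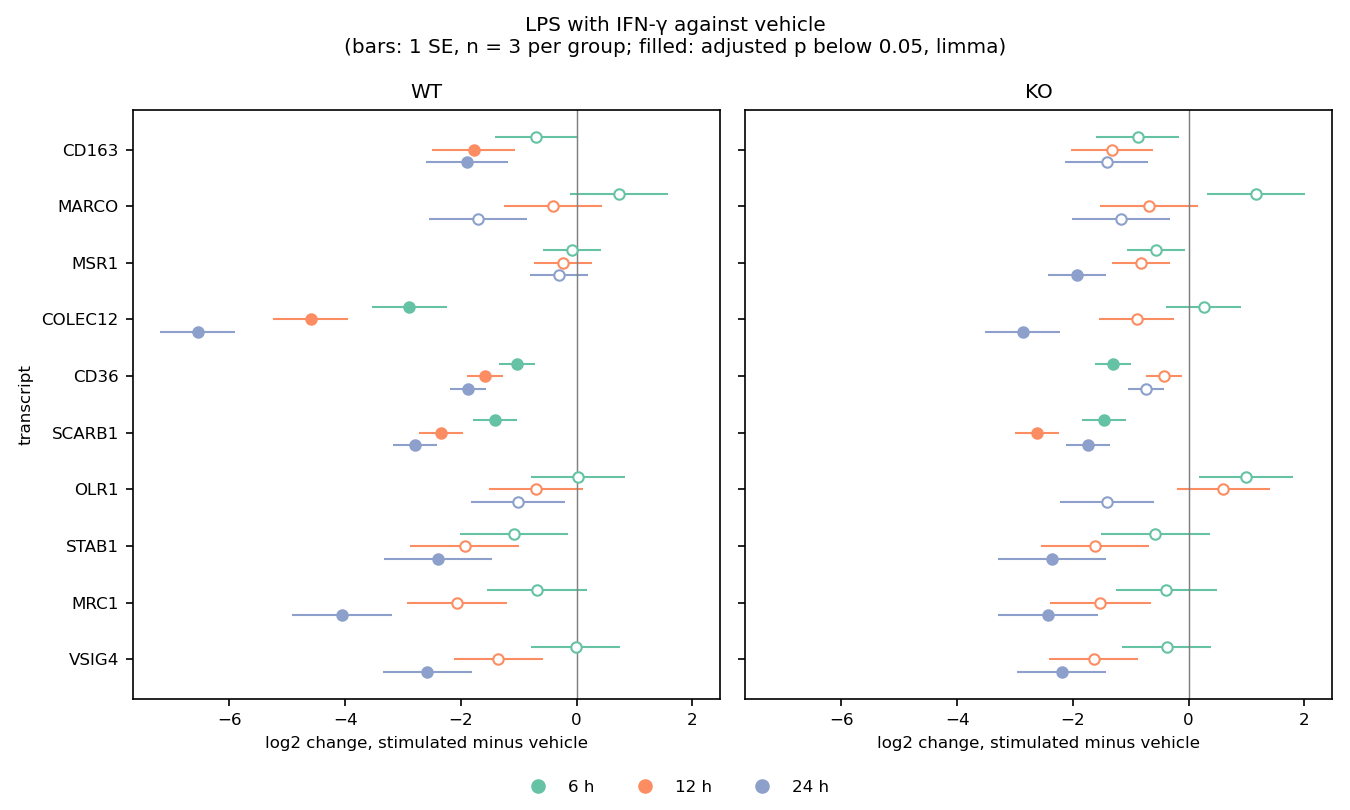
Change with LPS and IFN-γ on the log2 scale for each transcript in WT and in KO at 6, 12 and 24 h (points), with 1 SE (bars); filled points have an adjusted p below 0.05. All filled points lie below 0, and COLEC12 in WT falls from -2.89 at 6 h to -6.55 at 24 h.

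Among the class A members MSR1, MARCO and COLEC12, the last, a collectin expressed on scavenging endothelium and some macrophages, had the largest response in WT. The WT vehicle libraries of COLEC12 stood at 5.08, 3.96 and 5.85 (6 h), 6.48, 5.02 and 6.94 (12 h) and 8.09, 6.17 and 7.95 (24 h). With stimulation the WT libraries stood at 1.72, 1.25 and 3.25 (6 h), 1.61, 0.40 and 2.67 (12 h) and 0.82, 0.65 and 1.10 (24 h). No stimulated WT library reached a vehicle library of its time, and the changes were -2.89 ± 0.65 (adjusted p = 0.00084), -4.59 ± 0.65 (adjusted p = 2.24e-06) and -6.55 ± 0.65 (adjusted p = 4.09e-09). KO vehicle libraries stood at 1.44, 2.19 and 1.71 (6 h), 1.41, 2.66 and 2.33 (12 h) and 3.27, 3.95 and 3.55 (24 h), below each WT vehicle library of the same time. That difference was -3.18 ± 0.65 (adjusted p = 0.00178), -4.02 ± 0.65 (adjusted p = 0.000215) and -3.82 ± 0.65 (adjusted p = 0.000523), the last a 14.1-fold lower level. Stimulated KO libraries ran from 0.40 to 2.94 and overlapped the stimulated WT libraries at each time, with differences of -0.03, -0.32 and -0.13 (adjusted p of 0.986, 0.873 and 0.944).

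In KO the change of COLEC12 with stimulation was called at 24 h alone (-2.86 ± 0.65, adjusted p = 0.000809), after 0.26 and -0.90 at the earlier times. The KO vehicle libraries at 6 h and 12 h all lay below log2(10), so little fall could be seen there. This floor also limits the comparison of responses between genotypes, and its part was not tested. The test of whether the response differs between genotypes gave 3.15 ± 0.92, 3.69 ± 0.92 and 3.69 ± 0.92, with adjusted p of 0.151, 0.0895 and 0.0633, so the difference was not called at any time. With the replicate number as a block, where like-numbered libraries vary together, it was called at 12 h (adjusted p = 0.0158). It was also called with a pseudocount of 5 at 12 h (2.87, adjusted p = 0.0233) and 24 h (3.33, adjusted p = 0.00426), and at 24 h without WT vehicle replicate 2 (4.30, adjusted p = 0.0351). With library weights it was called at each time (4.28, 4.29 and 3.99, adjusted p of 4.22e-05, 0.000668 and 0.000826). The same weights gave a called rise of COLEC12 with stimulation in KO at 6 h (1.05, adjusted p = 0.0316). In those groups replicate 3 held most of the weight, the libraries overlapped and every library lay below log2(10). With equal weights limma called 0 interactions of the 10 members at each time, beside 0.452%, 0.16% and 0.433% of genes, and 1, 2 and 3 members had an unadjusted p below 0.05.

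MSR1, the macrophage receptor for acetylated low-density lipoprotein, was among the most abundant members and was not called with stimulation in WT, with changes of -0.09, -0.24 and -0.31 (adjusted p from 0.641 to 0.919). In KO at 24 h the vehicle libraries read 7.83, 7.50 and 7.89 and the stimulated ones 6.76, 4.88 and 5.76, which did not overlap and gave a change of -1.94 ± 0.50 (adjusted p = 0.00284). The stimulated WT libraries at 24 h read 9.20, 7.72 and 6.64. KO minus WT was -2.05 ± 0.50 (adjusted p = 0.0148), although WT replicate 3 lay below KO replicate 1. This call was lost without stimulated WT replicate 1 or stimulated KO replicate 2 or 3 (-2.03 to -1.38), and in a fit of only the 6 libraries compared (adjusted p = 0.311). At 12 h the stimulated groups did not overlap (9.54, 8.39 and 8.78 against 7.31, 7.20 and 7.17), with a difference of -1.68 ± 0.50 and an adjusted p of 0.0603, or 0.0148 with the replicate block and 0.0465 without stimulated WT replicate 2 (-1.94). In KO at 12 h the change with stimulation was -0.82 ± 0.50 (adjusted p = 0.212), called in a fit of only the libraries compared (adjusted p = 0.038). The interaction of genotype and stimulation at 24 h was -1.62 ± 0.71 (adjusted p = 0.345), so a difference in response was not called, except with library weights (-2.08, adjusted p = 0.0148). Library weights also called MSR1 lower in KO under vehicle at 6 h and 12 h (-1.35 and -1.29, adjusted p of 0.00102 and 0.0106) and with stimulation at 6 h and 12 h (-1.47 and -1.94, adjusted p of 0.00311 and 0.00186).

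MARCO, which binds bacteria and particles, was called in no comparison of the fit with equal library weights. Its WT vehicle libraries stood at 4.00, 2.11 and 4.65 (6 h), 3.92, 1.79 and 4.46 (12 h) and 4.57, 2.22 and 5.47 (24 h), and its KO vehicle libraries ran from 0.98 to 2.85. WT replicate 2 was the lowest of 3 in all 6 WT groups, and the groups overlapped under vehicle at each time. KO minus WT was -1.93, -1.60 and -2.16 under vehicle (SE 0.85, adjusted p of 0.18, 0.375 and 0.181), and the last was called without WT vehicle replicate 2 (-3.09, adjusted p = 0.045). In WT the change with stimulation at 24 h was -1.70 ± 0.85 (adjusted p = 0.102), and was called without vehicle replicate 2 or stimulated replicate 3 (-2.63 to -2.46). With library weights MARCO was called lower in KO under vehicle at all 3 times (-2.71, -2.05 and -2.17, adjusted p of 6.49e-05, 0.00926 and 0.012) and with stimulation at 6 h and 12 h (-2.37 at 6 h, adjusted p of 0.00251 and 0.0326). The same weights called its fall with stimulation in WT at 24 h (-1.87, adjusted p = 0.0112) and over time in stimulated WT (-2.35, adjusted p = 0.00195).

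Both class B receptors fell with stimulation. SCARB1, the receptor for high-density lipoprotein, read 8.44, 8.65 and 8.55 in WT vehicle libraries at 6 h and 7.22, 6.73 and 7.47 with stimulation. At 24 h the same groups read 8.41, 8.30 and 8.41 against 6.29, 5.01 and 5.44, again without overlap. The WT change was -1.41 ± 0.38 at 6 h (adjusted p = 0.00456), -2.34 ± 0.38 at 12 h (adjusted p = 1.9e-05) and -2.80 ± 0.38 at 24 h (adjusted p = 9.7e-07), the last a 6.94-fold lower level. In KO it was -1.46 ± 0.38 (adjusted p = 0.0031), -2.62 ± 0.38 (adjusted p = 3.38e-06) and -1.75 ± 0.38 (adjusted p = 0.000567), and at 24 h the libraries read 8.39, 8.38 and 7.99 against 7.19, 5.66 and 6.66. These 6 calls held in all leave-outs. No difference between KO and WT was called, and SCARB1 had the smallest genotype differences of the members under vehicle (0.25, 0.28 and -0.12). With stimulation at 24 h KO minus WT was 0.93 ± 0.38 (adjusted p = 0.15), and 1.35 (adjusted p = 0.0358) without stimulated KO replicate 2.

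CD36, the fatty acid translocase, which also binds oxidised lipoprotein, read 9.80, 9.23 and 9.60 in WT vehicle libraries at 6 h and 8.77, 7.85 and 8.93 with stimulation. By 24 h WT read 10.22, 9.81 and 9.60 against 7.76, 8.45 and 7.81. The WT changes were -1.03 ± 0.31 (adjusted p = 0.0107), -1.58 ± 0.31 (adjusted p = 0.000212) and -1.87 ± 0.31 (adjusted p = 1.78e-05), with no overlap at any time. At 6 h this call was lost without vehicle replicate 1 or stimulated replicate 2 (-0.90 to -0.69). In KO CD36 fell at 6 h, where the libraries read 9.05, 9.38 and 8.96 against 7.58, 7.89 and 7.99 (-1.31 ± 0.31, adjusted p = 0.00137). At 12 h and 24 h the KO groups overlapped, with changes of -0.43 (adjusted p = 0.306) and -0.74 (adjusted p = 0.06), the latter called without stimulated replicate 3 (-1.01, adjusted p = 0.0205). The interaction of genotype and stimulation at these times was 1.15 ± 0.44 and 1.13 ± 0.44, with adjusted p of 0.481 and 0.277, so a difference between genotypes was not called. With library weights it was called at both (1.63 and 1.56, adjusted p of 0.0135 and 0.0104). Stimulated KO minus stimulated WT at 24 h was 0.82 ± 0.31 (adjusted p = 0.117), and 1.11 (adjusted p = 0.0409) without stimulated KO replicate 2 or 1.13 (adjusted p = 0.00456) with library weights. The weights also called CD36 lower in KO under vehicle at 6 h and 12 h (-0.71 and -0.94, adjusted p of 0.0114 and 0.00792) and with stimulation at 6 h (-0.69, adjusted p = 0.0461).

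OLR1, which binds oxidised lipoprotein, was called in no genotype comparison of the fit without the replicate block. With stimulation at 12 h the WT libraries read 6.96, 6.99 and 5.36 and the KO libraries 8.05, 9.09 and 8.00, which did not overlap, and the difference was 1.94 ± 0.81 (adjusted p = 0.204), or adjusted p = 0.0159 with the replicate block. At 6 h the stimulated groups were also apart (7.46, 7.86 and 6.80 against 9.48, 8.23 and 8.88; difference 1.49 ± 0.81, adjusted p = 0.274). Replicate 3 was the lowest of 3 in all 6 WT groups and in 5 of 6 KO groups. Stimulation gave no called change in the fit of all libraries, and in KO at 24 h the change of -1.41 ± 0.81 was called without vehicle replicate 3 (-2.36, adjusted p = 0.029). With library weights the KO change at 6 h was a called rise (1.63, adjusted p = 0.016), against 0.99 ± 0.81 (adjusted p = 0.357).

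STAB1 read 7.24, 7.00 and 5.81 in WT vehicle libraries at 24 h and 4.67, 3.93 and 4.23 with stimulation. The corresponding KO libraries read 5.03, 7.10 and 3.91 against 3.22, 3.17 and 2.57. Neither pair of groups overlapped, and the changes were -2.40 ± 0.94 in WT (adjusted p = 0.0363) and -2.36 ± 0.94 in KO (adjusted p = 0.0455). The WT call was lost without vehicle replicate 1 or 2 or stimulated replicate 2 or 3 (-2.38 to -2.12). The KO call was lost without vehicle replicate 1 or 2 or any of the 3 stimulated replicates (-2.52 to -1.49), with a pseudocount of 5 (-1.87, adjusted p = 0.0666) and without the mean-variance trend (adjusted p = 0.0517). At 12 h the change was -1.94 ± 0.94 in WT (adjusted p = 0.103) and -1.61 ± 0.94 in KO (adjusted p = 0.189). With the replicate block both were called (adjusted p = 0.00938 and 0.0307), and the KO change was also called without vehicle replicate 3 (-2.60, adjusted p = 0.0464). The WT change at 12 h was also called in a fit of only the libraries compared (adjusted p = 0.0204). KO minus WT under vehicle was -1.42, -1.60 and -1.33 (SE 0.94) and was not called, with KO replicate 2 at 7.13, 7.30 and 7.10 and KO replicate 3 at 3.70, 3.22 and 3.91. With library weights it was called at 6 h (-3.23, adjusted p = 0.000157) and 12 h (-2.08, adjusted p = 0.0399), and so was the difference with stimulation at 6 h (-2.85, adjusted p = 0.00425, against -0.92 ± 0.94). At 12 h under vehicle it was also called without the KO libraries numbered 2, a choice made after seeing the data (-2.65, adjusted p = 0.0362).

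CD163 showed the largest difference between genotypes of the 10. WT vehicle libraries stood at 9.73, 9.73 and 8.19 (6 h), 9.72, 9.72 and 9.04 (12 h) and 10.14, 9.15 and 8.99 (24 h). KO vehicle libraries stood at 2.45, 5.43 and 3.68 (6 h), 2.75, 5.06 and 3.93 (12 h) and 3.29, 4.73 and 4.35 (24 h). Every KO library lay below every WT library, and the differences were -5.36 ± 0.71 (adjusted p = 1.31e-05), -5.58 ± 0.71 (adjusted p = 9.6e-06) and -5.31 ± 0.71 (adjusted p = 2.73e-05), or 41.1-fold, 47.8-fold and 39.5-fold lower levels. KO replicate 2 was the highest of 3 in all 6 KO groups.

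For CD163, stimulated WT libraries stood at 9.37, 8.65 and 7.52 (6 h), 8.78, 7.18 and 7.17 (12 h) and 8.68, 7.42 and 6.50 (24 h). Stimulated KO libraries stood at 2.78, 3.81 and 2.33 (6 h), 2.19, 3.70 and 1.89 (12 h) and 2.32, 3.59 and 2.21 (24 h). The gap between genotypes under stimulation was -5.54 ± 0.71 (adjusted p = 1.03e-05), -5.12 ± 0.71 (adjusted p = 6.95e-05) and -4.82 ± 0.71 (adjusted p = 0.000132). All 6 genotype calls held in every leave-out, and the one with stimulation at 24 h was lost in a fit of only the 6 libraries compared (adjusted p = 0.0798). In WT CD163 fell with stimulation, with changes of -1.78 ± 0.71 at 12 h (adjusted p = 0.0485) and -1.90 ± 0.71 at 24 h (adjusted p = 0.0302), after -0.70 at 6 h (adjusted p = 0.478). The first was lost without any of the 3 vehicle replicates or stimulated replicate 2 or 3 (-2.01 to -1.51) and without the mean-variance trend (adjusted p = 0.0551). The second was lost without vehicle replicate 1 or stimulated replicate 2 or 3 (-1.84 to -1.38) and with library weights (-1.29, adjusted p = 0.0562). In KO the changes were -0.88, -1.32 and -1.42 and were not called (adjusted p from 0.12 to 0.352), while library weights called those at 6 h and 24 h (-1.19 and -1.42, adjusted p of 0.0294 and 0.0321), and the interaction was -0.18, 0.46 and 0.48 (adjusted p of 1, 1 and 0.914).

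MRC1 fell to the bottom of the scale by 24 h of stimulation. WT vehicle libraries at 24 h read 5.27, 4.14 and 4.07 and stimulated ones 0.54, 0.61 and 0.18. KO read 2.90, 2.37 and 3.46 against 0.44, 0.22 and 0.76. Neither pair overlapped, and the changes were -4.05 ± 0.87 in WT (adjusted p = 0.000368) and -2.44 ± 0.87 in KO (adjusted p = 0.0264). The KO call was lost without vehicle replicate 1 or 3 or stimulated replicate 1 or 2 (-2.44 to -2.16) and with a pseudocount of 5 (-0.98, adjusted p = 0.152). At 12 h the change was -2.07 ± 0.87 in WT (adjusted p = 0.0595) and -1.53 ± 0.87 in KO (adjusted p = 0.179), and both were called with the replicate block (adjusted p = 0.00292 and 0.0254). The WT change at 12 h was also called without vehicle replicate 2 or stimulated replicate 3 (-2.77 to -2.63). KO minus WT under vehicle was -0.98, -1.71 and -1.58 (SE 0.87) and was not called (adjusted p of 0.584, 0.342 and 0.429), except at 12 h with the replicate block (adjusted p = 0.0489) or library weights (adjusted p = 0.0436). The weights also called the changes with stimulation at 12 h in WT and KO (-2.17 and -1.58, adjusted p of 0.00902 and 0.0347).

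VSIG4 was lower in KO in all 6 comparisons. WT vehicle libraries stood at 6.33, 5.48 and 6.79 (6 h), 6.51, 5.58 and 6.64 (12 h) and 7.23, 6.31 and 6.62 (24 h). KO vehicle libraries stood at 3.83, 4.94 and 2.43 (6 h), 3.22, 4.09 and 2.47 (12 h) and 3.02, 4.48 and 2.37 (24 h), with no overlap at any time. The differences were -2.46 ± 0.77 (adjusted p = 0.0427), -2.98 ± 0.77 (adjusted p = 0.0177) and -3.43 ± 0.77 (adjusted p = 0.00791). With stimulation WT stood at 6.14, 5.30 and 7.11 (6 h), 5.75, 2.76 and 6.15 (12 h) and 4.87, 2.70 and 4.84 (24 h). Stimulated KO libraries ran from 2.36 to 4.43 at 6 h, from 0.87 to 2.21 at 12 h and from 0.68 to 1.49 at 24 h. They lay below the WT libraries at each time, with differences of -2.83 ± 0.77 (adjusted p = 0.0187), -3.27 ± 0.77 (adjusted p = 0.0131) and -3.04 ± 0.77 (adjusted p = 0.0182).

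Each of these VSIG4 calls was lost when certain single libraries were left out. Under vehicle the calls at 6 h and 12 h were lost without WT or KO replicate 1 or 3 (-2.51 to -1.81 and -2.96 to -2.59), and that at 24 h without WT replicate 1 or KO replicate 1 or 3 (-3.30 to -2.97). With stimulation the call was lost without WT replicate 1 or 3 at each time and also without KO replicate 3 at 6 h, KO replicate 2 at 12 h and KO replicate 1 at 24 h (-2.85 to -2.33, -2.90 to -2.64 and -3.06 to -2.68). In fits of only the libraries compared, 4 of the 6 calls were lost: vehicle at 6 h (adjusted p = 0.101) and stimulated at all 3 times (adjusted p of 0.128, 0.149 and 0.177). A pseudocount of 5 ended the stimulated call at 24 h (-1.72, adjusted p = 0.0675). VSIG4 fell with stimulation at 24 h, with changes of -2.58 ± 0.77 in WT (adjusted p = 0.0071) and -2.19 ± 0.77 in KO (adjusted p = 0.0239). The WT call was lost without stimulated replicate 2 (-1.86), and the KO call without vehicle or stimulated replicate 2 (-1.98 to -1.60) and with a pseudocount of 5 (-1.10, adjusted p = 0.135).

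Between 6 h and 24 h no receptor was called changed under vehicle, and several fell with stimulation. Under vehicle limma called no member at 24 h against 6 h in either genotype, beside 0.00942% of genes called higher and 0.0801% lower in WT and 0.226% and 0.608% in KO, and 1 member in each genotype had an unadjusted p below 0.05. COLEC12 was higher at 24 h without a call, by 2.44 ± 0.65 in WT (adjusted p = 0.177) and 1.81 ± 0.65 in KO (adjusted p = 0.26). Its WT change was called with the replicate block (adjusted p = 0.0283) and with a pseudocount of 5 (2.25, adjusted p = 0.0122). In stimulated WT cells 3 of 10 members were called lower, beside 12.0% of genes, and 0 higher by limma (0 also at an unadjusted p below 0.05), beside 10.8%. These were MRC1 (-3.33 ± 0.87, adjusted p = 0.00606), OLR1 (-2.42 ± 0.81, adjusted p = 0.03) and SCARB1 (-1.57 ± 0.38, adjusted p = 0.00357).

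In stimulated KO cells 4 members were called lower, beside 13.0% of genes, and 1 higher, beside 14.5%. OLR1 went from 9.48, 8.23 and 8.88 at 6 h to 5.39, 6.32 and 4.35 at 24 h, an 11.4-fold lower level (-3.51 ± 0.81, adjusted p = 0.00203). MSR1 (-1.97 ± 0.50, adjusted p = 0.00442), MRC1 (-2.61 ± 0.87, adjusted p = 0.0251) and VSIG4 (-2.26 ± 0.77, adjusted p = 0.0285) also fell. CD36 was the member that rose, from 7.58, 7.89 and 7.99 to 8.87, 8.25 and 9.36 (1.01 ± 0.31, adjusted p = 0.0172), and in stimulated WT cells its change was -0.51 ± 0.31 (adjusted p = 0.256). The difference between these 2 changes was not tested. Of the KO calls, MRC1 was lost without replicate 1 or 3 at 6 h or replicate 1 or 2 at 24 h (-2.60 to -2.03), VSIG4 without replicate 2 at 6 h or replicate 1 or 2 at 24 h (-2.27 to -1.72) and with library weights (-1.37, adjusted p = 0.0676), and CD36 without replicate 1 at 6 h or replicate 3 at 24 h (0.74 to 0.89). In WT, OLR1 was lost without replicate 1 or 2 at 6 h or replicate 3 at 24 h (-2.38 to -1.88).

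Some changes over time were called only under another setting. In stimulated WT cells VSIG4 (-2.04 ± 0.77, adjusted p = 0.0541) and MSR1 (-1.22 ± 0.50, adjusted p = 0.0789) were called with the replicate block (adjusted p = 0.0456 and 0.0296). VSIG4 there was also called without replicate 2 at 6 h or replicate 1 or 3 at 24 h (-2.48 to -2.39), MSR1 without replicate 1 at 24 h (-1.89) and MARCO without replicate 3 at 24 h (-2.68). In stimulated KO cells STAB1 and MARCO were called without replicate 3 at 6 h (-2.65 and -2.53), and SCARB1 without replicate 1 at 24 h (-1.17). Library weights called VSIG4 (-1.47, adjusted p = 0.0391) and CD36 (-0.75, adjusted p = 0.0231) in stimulated WT, and COLEC12 in WT vehicle (2.49, adjusted p = 0.00492), KO vehicle (1.77, adjusted p = 0.00313) and stimulated KO (-1.97, adjusted p = 0.00264). In fits of only the libraries compared, the calls of SCARB1 in WT (adjusted p = 0.0637) and of MSR1, MRC1, VSIG4 and CD36 in KO (adjusted p of 0.0691, 0.106, 0.0767 and 0.111) were lost, and a pseudocount of 5 ended those of MRC1 (-1.24) and VSIG4 (-1.14) in KO.

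Over the 36 libraries, which share their groups and so their group means, the members most alike were MARCO and VSIG4 (Pearson r = 0.865) and CD163 and VSIG4 (0.835), and OLR1 ran apart from CD163 (-0.209) and MARCO (-0.173). Among 15126 protein-coding genes, the gene most like CD163 was the gelatinase MMP9 (0.943), and the one most like SCARB1 was LRP3 (0.945), a relative of the low-density lipoprotein receptor. COLEC12 ran most like the peroxisomal enzyme HSD17B4 (0.924), and CD36 most like the thromboxane synthase TBXAS1 (0.913). The best match was weaker for MRC1 (GINM1, 0.870), VSIG4 (PGA3, 0.872), OLR1 (LTBP2, 0.852), STAB1 (MAPK13, 0.824) and MSR1 (SSR1, 0.812).

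Other scavenger receptors, 13 tested, were called in both directions. With stimulation 3, 4 and 4 were called higher and 2, 3 and 2 lower in WT, and 3, 5 and 4 higher and 1, 2 and 3 lower in KO, with medians in WT of -0.30, -0.26 and -0.21. Over all genes the shares called in WT at 6, 12 and 24 h were 15.1%, 16.8% and 20.2% higher and 20.9%, 21.7% and 26.1% lower, and those in KO 16.2%, 15.5% and 17.3% higher and 22.5%, 19.5% and 21.6% lower, so the counts of lower genes here were near or below the background. SCARF1, a receptor for acetylated lipoprotein, rose in WT (3.36, 3.62 and 3.63; SE 0.39) and in KO (3.38, 3.40 and 3.59), each with an adjusted p of at most 9.46e-08. LRP1, the receptor for alpha-2-macroglobulin, fell at 12 h and 24 h in WT (-2.23 and -3.00; SE 0.46) and in KO (-1.92 and -3.36). In KO vehicle libraries 3 of the 13 were lower at each time, beside 3.91%, 2.34% and 1.75% of all genes: CD163L1, the nearest relative of CD163 (-2.87, -2.44 and -1.77; SE 0.46), LRP1 (-2.10, -2.29 and -1.92) and CD68 (-1.35, -1.46 and -1.67; SE 0.32). SSC5D was higher in KO at all 3 times (2.99, 3.11 and 3.48; SE 0.56).

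Of 9 tested relatives of the mannose receptor and macrophage lectins, 2, 4 and 4 were called lower in KO under vehicle, beside 3.91%, 2.34% and 1.75% of all genes, with medians of -1.42, -2.27 and -2.17. CLEC7A, the beta-glucan receptor dectin-1, had differences of -3.67, -3.30 and -2.17 (SE 0.56), and CLEC4A of -2.41, -2.75 and -2.33 (SE 0.60). With stimulation 1, 2 and 2 were called higher and 3 lower at each time in WT, and 1, 2 and 2 higher and 1, 2 and 3 lower in KO, beside the all-gene shares given for the other scavenger receptors. CLEC4E, the receptor Mincle, rose in WT (4.15, 4.81 and 5.58; SE 0.83) and KO (4.01, 5.63 and 7.28). CD302 fell at 12 h and 24 h in WT (-1.57 and -3.36; SE 0.32) and in KO (-1.86 and -2.71).

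Among 12 receptors and bridging proteins for apoptotic cells, 5, 4 and 5 were called lower with stimulation in WT and 5, 4 and 6 in KO, with medians of -0.24, -0.06 and -0.49 and of -0.22, -0.39 and -1.40. The shares over all genes were 20.9%, 21.7% and 26.1% lower in WT and 22.5%, 19.5% and 21.6% in KO. MERTK, a kinase that recognises bridged phosphatidylserine, fell in WT, with changes of -4.02, -1.94 and -1.48 (SE 0.46), as did the lipid receptor TREM2 with -1.66, -2.83 and -4.24 (SE 0.53). In KO they fell too, with changes of -4.50, -1.79 and -1.56 and of -1.82, -3.69 and -5.22. Of 6 complement receptors 2, 1 and 1 were lower in KO under vehicle (medians -0.35, -0.37 and -0.45), beside 3.91%, 2.34% and 1.75% of all genes, with C5AR1 lower at all 3 times (-2.02, -1.93 and -1.64; SE 0.45).

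Genes of haem handling, downstream of CD163 uptake, were called in both directions. Of 11 tested, 5, 4 and 4 fell and 1, 2 and 3 rose with stimulation in WT, with medians of -0.81, -0.28 and -0.15, where 20.9%, 21.7% and 26.1% of all genes fell and 15.1%, 16.8% and 20.2% rose, so the rises at 6 h and 12 h were near or below the background. The iron exporter SLC40A1 fell there, with changes of -1.61, -2.24 and -3.22 (SE 0.50), and the biliverdin reductase BLVRA rose by 3.25, 2.92 and 1.47 (SE 0.32). In KO under vehicle 2, 1 and 1 of the 11 were lower, beside 3.91%, 2.34% and 1.75% of all genes: ferritin heavy chain FTH1 at all 3 times (-1.66, -1.66 and -1.40; SE 0.36) and HMOX1 at 6 h (-1.72 ± 0.44, adjusted p = 0.012).

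Of 17 genes of lipoprotein and cholesterol handling 6, 4 and 6 fell with stimulation in WT and 1, 3 and 3 rose, with medians of -0.34, -0.31 and -0.47. Those counts stand beside the same all-gene shares of 20.9%, 21.7% and 26.1% lower and 15.1%, 16.8% and 20.2% higher, and at 12 h both were near the background. PPARG, a nuclear receptor known to induce CD36, fell with changes of -2.55, -4.22 and -3.69 (SE 0.48) in WT and -1.84, -3.12 and -3.59 in KO. NR1H3, the oxysterol receptor LXR-alpha, rose by 2.73, 4.25 and 4.16 (SE 0.59) in WT. Of 17 regulators of macrophage receptor genes, 8, 7 and 9 rose and 4 fell at each time in WT (medians 0.62, 0.48 and 0.73), beside 15.1%, 16.8% and 20.2% of all genes higher and 20.9%, 21.7% and 26.1% lower, among them IRF4 (5.42, 5.62 and 4.40; SE 0.65) and CEBPA (-3.49, -3.00 and -2.40; SE 0.23). In KO under vehicle IL10 (-2.58 ± 0.69) and SPI1 (-1.15 ± 0.23) were lower at 6 h. Of 5 genes of receptor shedding, by which CD163 and other receptors are cut from the surface, 2 were higher in KO under vehicle at each time (medians 0.74, 1.14 and 1.25), beside 4.28%, 2.9% and 2.23% of all genes. These 2 were RHBDF1 (1.86, 1.35 and 1.25, SE 0.31) and TIMP3, an inhibitor, so the count gives no single direction for shedding. In WT 1 of the 5 rose with stimulation at each time, near the background of 15.1%, 16.8% and 20.2%. RHBDF2, a partner of the protease ADAM17, rose in WT (1.81, 2.82 and 3.28; SE 0.23), and the inhibitor TIMP3 was higher in KO under vehicle (2.32, 2.80 and 3.31; SE 0.49).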

How the data were processed

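RNA was extracted with a Qiagen kit and sequenced from ribosomal RNA-depleted KAPA libraries, per the labels' protocols. The authors deposited 1 table of log2 values, used here as deposited. The submitters' processing notes name the aligner GSNAP, cutadapt 1.9.1 and GRCh37.p5. How reads were counted, which offset preceded the logarithm and how libraries were normalized is not given in the sources used here. Library medians ran from 5.47 to 5.48. Without counts, the depth of each library and its precision are unknown.

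A gene was kept if at least 3 libraries reached log2(10), which left 21232 of 21599. Group means of all 36 libraries were fitted with limma 3.58.1 in R 4.3.3 (mean-variance trend, 24 residual degrees of freedom). Benjamini-Hochberg adjustment ran over all kept genes within each comparison. The fit was tested on simulated data. Linear folds are given where both means reach log2(10). Exon lengths are the union of all exons of a gene in GENCODE 29, and promoter sequences are from RefSeq (GRCh38.p14). Tables and figures used Python 3.11.15.

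The members and gene lists were chosen with earlier results of these data known. Named genes are the 10 members, ACOD1, up to 4 per list with the largest mean change among those called, and the protein-coding genes most alike to each member. Some results that the rule names are not reported here. Whether replicate numbers pair the libraries was checked from deviations from group means: in 12 of 16 comparisons every like-numbered pair had r over 0.1 (range over all pairs, -0.150 to 0.589), and there the blocked value stands beside results whose call it changes. The fit was repeated without the filter, after adding a pseudocount of 5, after quantile normalization or centring on medians, without the variance trend, with library weights, with a replicate block, on the compared libraries alone, with a floor of 1 on the log2 change, and without each library.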

Additional observations from a re-analysis of the deposited data

How the results depend on the processing

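Of 190 member results 47 were called, and 0 of these changed direction in any alternative. Of the 143 not called, 53 changed sign in at least 1 alternative (151 values, 112 of them in leave-outs), none of these values being called. Of the called results 19 lost the call in at least 1 leave-out, while 16 others gained one. No filter, quantile normalization, median centring and a minimum log2 change of 1 changed no call of a member. Without the mean-variance trend 2 calls were lost. Numbers of members called are given next only where they changed by a large factor, or to or from 0. Counts that are not listed can therefore differ too. With a pseudocount of 5, stimulated against vehicle in KO at 24 h gave 3, the interaction 1 at 12 h and 1 at 24 h, and 24 h against 6 h gave 1 in WT vehicle and 3 in stimulated KO. With the replicate block, stimulated against vehicle in KO at 12 h gave 3, KO against WT with stimulation 4 at 6 h and 4 at 12 h, the interaction 1 at each time (COLEC12, adjusted p = 0.0297, 0.0158 and 0.00843), and 24 h against 6 h gave 1 in WT vehicle, 5 in stimulated WT and 8 in stimulated KO. The 4 comparisons whose like-numbered libraries do not pair gained MSR1 (adjusted p = 0.0391) and OLR1 (0.042) in KO against WT with stimulation at 6 h, OLR1 in KO at 24 h (0.0215), and STAB1 (0.0253), COLEC12 (0.0468) and MARCO (0.0478) over time in stimulated KO. The block ended no call. With library weights, whose estimation stopped before convergence, stimulated against vehicle in KO gave 5 at 6 h and 2 at 12 h, KO against WT 7 and 8 under vehicle and 6 and 4 with stimulation at 6 h and 12 h, the interaction 1, 2 and 3, and 24 h against 6 h gave 1 in WT vehicle, 6 in stimulated WT and 1 in KO vehicle. With only the libraries compared, stimulated against vehicle in KO at 12 h gave 2, KO against WT with stimulation 1, 1 and 0, and 24 h against 6 h in stimulated KO 1. Without the 6 KO libraries numbered 2, an alternative chosen after seeing the data, the interaction gave 1 at 12 h and 1 at 24 h. That alternative ended the calls of VSIG4 and STAB1 with stimulation in KO at 24 h (adjusted p = 0.247 and 0.173), of MSR1 in KO against WT with stimulation at 24 h (0.0659) and of VSIG4 over time in stimulated KO (0.256). Without the 2 least alike libraries, also chosen after seeing the data, 5 calls were lost and 3 gained. Each library left out in turn gave 4 to 7 for stimulated against vehicle in WT at 24 h, 1 to 2 in KO at 12 h and 3 to 6 in KO at 24 h, 1 to 2, 1 to 3 and 1 to 4 for KO against WT with stimulation, 0 to 1 for the interaction at 24 h, and 2 to 5 and 3 to 6 for 24 h against 6 h in stimulated WT and KO. The cause was not tested, other than fewer libraries in the leave-outs.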
